A study of Mus musculus with 6 samples.

Results

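Gvin1 and 9 other interferon-inducible GTPase genes were followed through every library of the series. The genes were Gvin1, Irgm1, Irgm2, Igtp, Iigp1, Tgtp1, Ifi47, Gbp2, Gbp3 and Gbp7, which are 10 of the 24532 genes in the deposited table, found by their gene symbol. Gvin1 was chosen by its values in Ahnak KO and WT kidneys, and the other genes were added to see whether related GTPases follow it. Its values in kidney are therefore given as a description, and tests between genotypes in kidney are given for the other 9 members. RNA from whole mouse kidney or ureter was sequenced at PN1, the first day after birth. Each genotype, Ahnak KO and WT, had 2 kidney libraries and 1 ureter library. The Ahnak KO mice carry a disrupted exon 5 of Ahnak, which encodes a large scaffold protein, and the WT mice do not. The RNA of a library came from between 2 and 4 kidneys or ureters by the methods, and the strain is not given in the sources used here. Both ureter libraries carry titles that call them kidney replicates, while their source and tissue labels say ureter.

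Interferons are secreted signals that bind receptors on the cell surface and act through JAK kinases and STAT transcription factors, and they switch on several families of large GTPases. The immunity-related GTPases (IRGs) and the guanylate-binding proteins (GBPs) gather at the membranes around intracellular bacteria and parasites. Gvin1 belongs to the very large inducible GTPases, whose function is little known. Most of these genes are low in tissue without infection and are known as sensitive readouts of an interferon signal.

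The kidney libraries held 55744703 to 66095616 estimated counts, and the ureter libraries held 36410246 (Ahnak KO) and 54985927 (WT). Ahnak itself was counted in every library, at 139 and 131 CPM (counts scaled by library size with TMM factors) in Ahnak KO kidneys, 184 and 189 CPM in WT kidneys, 634 CPM in Ahnak KO ureter and 728 CPM in WT ureter. Markers fitted the tissue labels. All 9 kidney epithelium genes were lower in ureter, where they summed to 0.470 and 1.67 CPM against 1495 to 1858 CPM in kidney, and all 6 urothelium and all 6 smooth muscle genes were higher in ureter. Ahnak KO kidney replicate 1 stood apart, with 176348 counts of Xist and none on Ddx3y, Eif2s3y, Kdm5d and Uty of the Y chromosome, against at most 36 of Xist and at least 8415 on the Y genes in every other library. That is the pattern of female RNA in this library and of male RNA in the others.

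Gvin1 (gene number 74558) lies on the minus strand of chromosome 7 (GRCm38, chr7:106156535-106215340), over 58806 bp. Its transcript Gvin1-201 has 2 exons and 8795 nucleotides, and exon 2 (106156556 to 106165264) alone holds 8709 of them, with the coding sequence from 106157980 to 106165260. A second gene, Gm4070 (chr7:105895118-105953967), lies 202568 bp away and has a transcript of the same length. Gm4070-201 differs from Gvin1-201 at 3 positions, all of them in the coding sequence, so that the transcripts are 99.9659% identical and share a run of 3098 nucleotides. Within these transcripts the 3 differences are the only places where a read can tell the genes apart, and each is shown with 20 bases on either side, from the GENCODE M21 transcripts, with the differing base in capitals. The differences are G1895T, G4994A and C7165T, counted from 1 at the 5′ end of the transcript, with the base of Gvin1-201 first and that of Gm4070-201 last.
Gvin1-201 (1895, chr7:106163436-106163476, minus strand): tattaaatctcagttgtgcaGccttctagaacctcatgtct
Gm4070-201 (1895, chr7:105902019-105902059, minus strand): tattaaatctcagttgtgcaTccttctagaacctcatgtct
Gvin1-201 (4994, chr7:106160337-106160377, minus strand): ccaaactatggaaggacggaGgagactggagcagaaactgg
Gm4070-201 (4994, chr7:105898920-105898960, minus strand): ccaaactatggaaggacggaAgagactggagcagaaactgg
Gvin1-201 (7165, chr7:106158166-106158206, minus strand): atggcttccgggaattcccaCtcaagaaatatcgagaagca
Gm4070-201 (7165, chr7:105896749-105896789, minus strand): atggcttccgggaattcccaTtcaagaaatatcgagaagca

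Gvin1 was listed with 1003 counts in WT kidney 1 and 931 in WT kidney 2, and with 0 counts in both Ahnak KO kidneys, in Ahnak KO ureter and in WT ureter. It was listed above 0 in the WT kidneys alone, and the WT ureter library stood with the Ahnak KO libraries. In WT kidneys it had 14.7 ± 0.833 CPM (SD, n = 2), and at that level the WT ureter library would hold 755 counts. With 3 counts per library taken as the limit of detection, Gvin1 was at least 293-fold higher in WT than in Ahnak KO kidneys and at least 252-fold higher in WT kidneys than in WT ureter. These limits cover counting error only. The counts are estimates, so an entry of 0 does not show that no read was sequenced.

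Gm4070 had 0, 0, 1, 274, 0 and 0 counts in Ahnak KO kidney 1 and 2, WT kidney 1 and 2, Ahnak KO ureter and WT ureter. The WT kidneys thus had near-equal entries for Gvin1 and very unequal entries for its copy. Summed over both genes, WT kidney 1 had 1004 counts and WT kidney 2 had 1205, and the other libraries had 0. The entries of 0 outside WT kidney therefore held for the pair together, and how reads were divided between the copies was not tested.

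**Figure D1:**
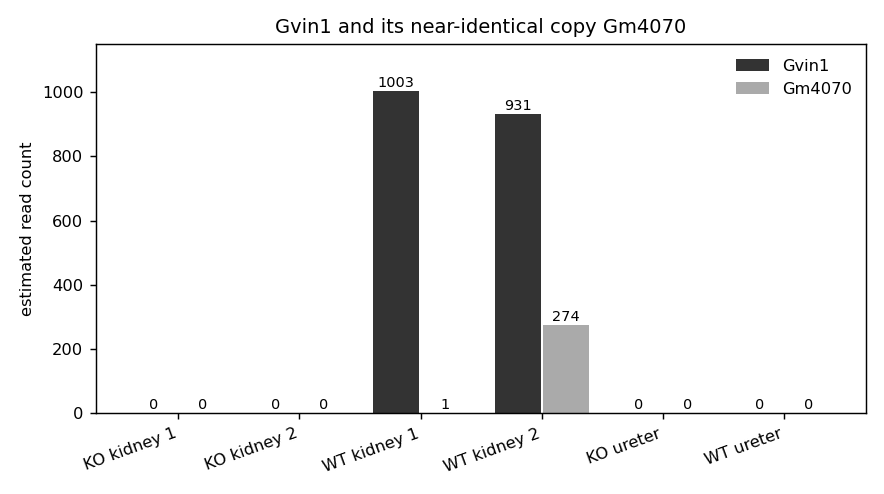
Estimated read counts (y axis, linear) of Gvin1 (dark bars) and its near-identical copy Gm4070 (grey bars) in each of the 6 libraries (x axis), with the count printed above each bar. Gvin1 had 1003 and 931 counts in the WT kidneys and 0 elsewhere, and Gm4070 had 274 counts in WT kidney 2 and at most 1 elsewhere.

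Of the stretches of 100 nucleotides in Gvin1-201, 97.7% also occur in transcripts of another gene, 96.6% in Gm4070. Among the other members only Tgtp1 had a comparable share, 83.3%, of which most lie in its paralog Tgtp2 (80.0%), and the remaining genes ran from 0% (Irgm1, Iigp1 and Gbp2) to 10.2% (Gbp7). The deposited table marks 366 genes whose transcripts were placed at more than 1 location, and Gvin1 is the only member among them. Of the marked genes with at least 100 counts in a kidney library, 7 of 49 (14.3%) had at most 3 counts in another kidney library, against 43 of 14114 other genes (0.305%). Over all 6 libraries the shares were 12 of 53 (22.6%) and 782 of 14625 (5.35%). The shares over 6 libraries also count genes that differ between kidney and ureter. Both sets of shares count the Y genes listed at 0 in Ahnak KO kidney 1. Gvin1, which was chosen for such a pattern, is itself counted among the marked genes with it, as are Gm4070 and Zfp973. The shares of marked genes are therefore not independent of that choice. Whether multiple placement had a part in the Gvin1 entries was not tested.

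A split by genotype of this size, with at most 3 counts in both kidneys of a genotype and at least 100 in both of the other, was met by 3 genes. Zfp973, a zinc finger gene that the table also marks as placed more than once, was listed at 0 and 3 in the kidneys of Ahnak KO mice, against 264 and 238 in WT. It differed from Gvin1 in ureter, where it had 0 counts in Ahnak KO and 58 in WT. Capn11, a calpain protease gene, went the opposite way, with 190 and 357 in the kidneys of Ahnak KO mice and 0 in both WT libraries.

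The annotation lists 11 genes within 300 kb of Gvin1, Gvin1 included, of which 7 have a row in the table. Of the other 6 with a row, Gm4070 is annotated as protein coding and 5 as transcribed pseudogenes. Gm17757 (named Gm18852 in the annotation) had 56, 82, 115, 52, 49 and 51 counts in the library order used above. Gm8989 had 47, 44, 47, 38, 11 and 26 counts. Both pseudogenes were therefore listed above 0 in Ahnak KO kidneys and in ureter, where Gvin1 was listed at 0. The table marks both as placed more than once, and which copy their counts come from was not tested. Gm8979 and Gm18853, which lies within the bounds of Gvin1, were at 0 in every library, and Gm4759 had 4 counts in WT kidney 2 alone. Gm1966, a family member outside this window, had 60, 109, 130, 66, 120 and 133 counts.

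The promoters of most other members held letters known from interferon-induced genes. RefSeq promoters (GRCm38.p6, 250 bases before to 50 after the start) were at hand for 8 members, and none was at hand for Gvin1 and Iigp1. The letters GAAANNGAA, here called ISRE-like after the interferon-stimulated response element, and TTCNNNGAA, here called GAS-like after the gamma-activated site, were searched on both strands. Within 100 bases before the start, 7 of 8 members held an ISRE-like match and 4 of these also held a GAS-like match. Of all 32851 promoters, 2.53% held the first, 2.55% the second and 0.094% both in that window. Of the members only Ifi47 held neither. The 8 members had 9 promoters, since Gbp3 had a further one (chr3:142560256-142560355), and that one held neither. The shares over all promoters count promoters and not genes. A match describes the letters and is not a tested site.
The 100 bases before the start are shown for 6 members because they carry these matches in 3 arrangements, with every match that lies wholly within them in capitals. In Igtp, Irgm2 and Tgtp1 a GAS-like match stands 2 bases before an ISRE-like match, in Gbp7 they lie apart, and Irgm1 and Gbp2 hold ISRE-like matches alone.
Igtp (chr11:58199456-58199555, plus strand): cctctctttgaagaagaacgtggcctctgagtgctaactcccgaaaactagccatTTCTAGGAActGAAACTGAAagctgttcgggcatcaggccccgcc
Irgm2 (chr11:58214877-58214976, plus strand): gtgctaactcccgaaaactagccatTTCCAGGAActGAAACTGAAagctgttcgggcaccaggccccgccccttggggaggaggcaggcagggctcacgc
Tgtp1 (chr11:48992247-48992346, minus strand): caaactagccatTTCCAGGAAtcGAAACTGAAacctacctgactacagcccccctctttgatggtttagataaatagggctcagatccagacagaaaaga
Gbp7 (chr3:142530236-142530335, plus strand): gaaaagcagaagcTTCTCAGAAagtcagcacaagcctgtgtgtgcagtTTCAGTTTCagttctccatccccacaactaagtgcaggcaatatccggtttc
Irgm1 (chr11:48871421-48871520, minus strand): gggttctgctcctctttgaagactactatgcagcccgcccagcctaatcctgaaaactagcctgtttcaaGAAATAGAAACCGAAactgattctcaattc
Gbp2 (chr3:142620563-142620662, plus strand): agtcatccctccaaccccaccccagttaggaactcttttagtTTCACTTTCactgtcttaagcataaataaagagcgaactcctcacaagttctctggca

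The other 9 members were counted in every library, from 100 to 3575 counts, and in none of them did the genotypes separate in kidney. In the regulatory IRGs, which control the effector IRGs, the genotypes overlapped. Irgm1 (gene number 15944, chr11:48865245-48871420) had 2582 and 2828 counts in the Ahnak KO kidneys, 3575 and 2234 in WT kidneys, 1184 in Ahnak KO ureter and 1364 in WT ureter. WT kidney 1 and WT kidney 2 were the highest and the lowest of the kidneys once depth was allowed for, at 50.2 and 36.6 CPM. Irgm2 (gene number 54396, chr11:58214977-58222783) had 420 and 626 counts in the Ahnak KO kidneys, 611 and 599 in WT kidneys, and 470 and 493 in Ahnak KO and WT ureter. Igtp (gene number 16145, chr11:58199556-58207592) had 538 and 751, then 949 and 643, and 319 and 520 counts. In both genes Ahnak KO kidney 1 was the lowest kidney library.

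In the effector IRGs, which coat and break the membranes around parasites, the genotypes overlapped as well. Iigp1 (gene number 60440, chr18:60373616-60392634) had 955 and 1286 counts in the Ahnak KO kidneys, 1744 and 675 in WT kidneys, and 1334 and 1235 in Ahnak KO and WT ureter. The WT kidneys lay outside the Ahnak KO kidneys on either side, 2.21-fold apart in CPM. Tgtp1 (gene number 21822, chr11:48985329-48992246) had 338 and 474 counts in the Ahnak KO kidneys, 576 and 394 in WT kidneys, and 120 and 109 in the ureters. Ifi47 (gene number 15953, chr11:49076587-49096987) had 229 and 341, then 386 and 207, and 266 and 100 counts. Tgtp1 shares most of its sequence with Tgtp2, so its counts may hold reads of both, and Tgtp2 had 241, 306, 439, 264, 128 and 92 counts.

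The GBP members, whose family coats bacteria and helps to open their vacuoles, all lie on chromosome 3. Gbp2 (gene number 14469, chr3:142620663-142638008) had 228 and 340 counts in the Ahnak KO kidneys, 443 and 303 in WT kidneys, and 639 and 888 in Ahnak KO and WT ureter. Both ureter libraries stood above every kidney library. Gbp3 (gene number 55932, chr3:142560016-142573213) had 1378 and 1541, then 2632 and 1064, and 829 and 659 counts. Gbp7 (gene number 229900, chr3:142530336-142550151) had 1118 and 1148, then 1622 and 1009, and 942 and 1131 counts. In Gbp3 and Gbp7, as in Iigp1, WT kidney 1 was the highest kidney library and WT kidney 2 the lowest in CPM.

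**Figure D2:**
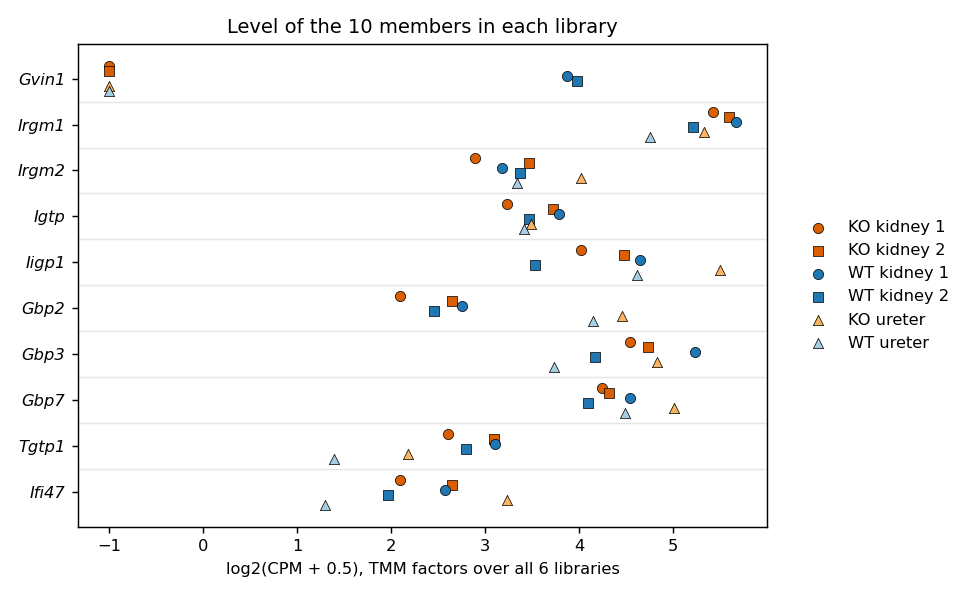
Level of each of the 10 members (rows) in each library, as log2(CPM + 0.5) with TMM factors over all 6 libraries (x axis, log scale), with 1 symbol per library. Gvin1 sits at 14.1 and 15.3 CPM in the WT kidneys and at 0 CPM elsewhere (the left edge), while the other 9 genes are present in every library.

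Per transcript length, the deposited FPKM ordered the members in kidney as Irgm1 (20.8 ± 2.85, SD, n = 4), Gbp3 (10.2 ± 3.32), Iigp1 (6.38 ± 2.08), Igtp (5.87 ± 1.07), Gbp7 (3.59 ± 0.507), Ifi47 (2.67 ± 0.739), Irgm2 (2.67 ± 0.472), Tgtp1 (2.61 ± 0.461) and Gbp2 (2.2 ± 0.466). Irgm1 stood clear of the rest, from 17.2 to 23.8 FPKM against at most 14.8 for Gbp3. Igtp (4.55 to 6.94) and Gbp7 (3.08 to 4.28) did not overlap either, and all other neighbours in this order did. Gvin1 in WT kidneys, at 1.68 and 1.79 FPKM, was below the kidney mean of every other member.

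Between genotypes in kidney, the other 9 members differed by less than their replicates did. Their log2 fold changes, Ahnak KO over WT, ran from -0.23 for Gbp2 (SE 0.303) to 0.11 for Ifi47 (SE 0.354), with a median of -0.071 against -0.0041 over all genes tested. The WT libraries alone differed, replicate 1 over replicate 2, by -0.19 (Irgm2) to 1.11 (Iigp1) on the log2 scale, with a median of 0.45. The gap between the WT replicates was larger than the difference between genotypes in 9 of 9 members, and in 62.1% of all genes tested. With edgeR's quasi-likelihood test, 2 of 16481 genes were lower in Ahnak KO kidneys (0.0121%) and 0 were higher (0.0%) at an adjusted p under 0.05. None of the other 9 members was called. At an unadjusted p under 0.05 edgeR gave 227 genes, and 0 of these 9. DESeq2's Wald test called 21 genes lower and 25 higher, with 0 of the 9 among them, and limma on FPKM called 0 genes. Both Ahnak KO kidneys lay below both WT kidneys in 0 of the 9, against 13.3% of all genes, and above them in 0 of the 9, against 12.8%.

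**Figure D3:**
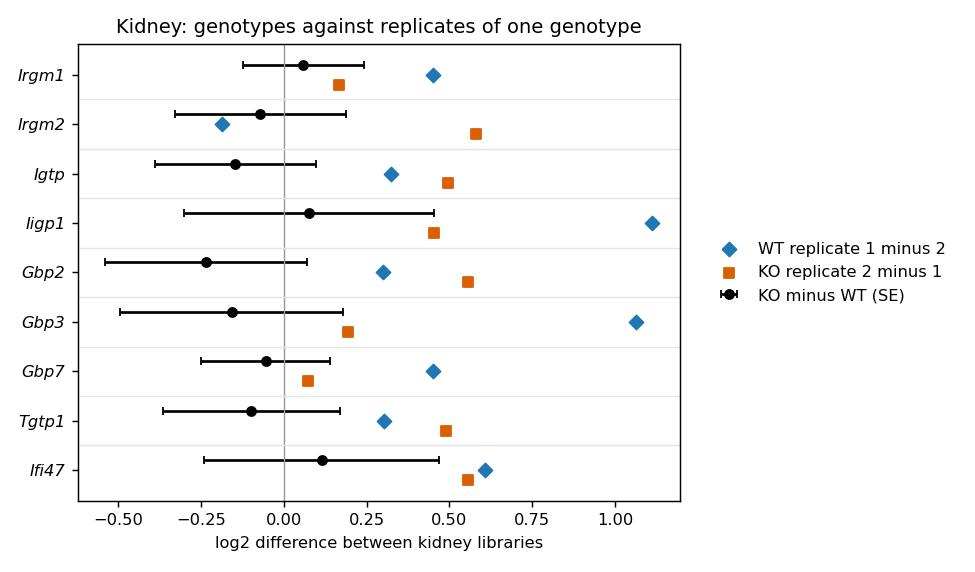
Log2 differences between kidney libraries (x axis) for the 9 members other than Gvin1 (rows). Black points with bars give Ahnak KO minus WT with its SE from edgeR, blue diamonds WT replicate 1 minus replicate 2, and orange squares Ahnak KO replicate 2 minus replicate 1; the black points lie between -0.23 and 0.11, and the blue diamonds reach 1.11.

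No other gene tested of the GVIN, IRG, GBP and Mx lists was called between genotypes in kidney. Gm4070 did not pass the filter on counts and was not tested, with 0 and 0 counts in the Ahnak KO kidneys against 1 and 274 in WT kidneys. Of 21 IRG, GBP and Mx genes that are not members, 16 were tested, and 0 passed an adjusted p under 0.05 or an unadjusted p under 0.05 in edgeR, with a median log2 fold change of -0.071. Likeness to Gvin1 over the 6 libraries was ranked only for genes that passed the count filter with a mean of at least 1 CPM. Gm4070, 9930111J21Rik1 and other GTPase genes with low counts were therefore not ranked, and their likeness to Gvin1 is not given. Among the GTPases ranked, the closest to Gvin1 was Tgtp1, with a Pearson r of 0.50 in log2(CPM + 0.5), which placed it 2608 of 14587 genes. Of the 22 GTPase genes ranked, Gbp8 (r = -0.75) and Gbp5 (r = -0.74) were the least alike. The closest of all genes ranked were Ube2m (r = 0.99), a conjugating enzyme for the ubiquitin-like protein NEDD8, Nutf2-ps1 (0.98), H2afv (0.98), Epg5 (0.97) and 9330020H09Rik (0.96). Ube2m had 2940 counts in each Ahnak KO kidney, 7297 and 6022 in WT kidneys, and 1445 and 2272 in Ahnak KO and WT ureter, so that it was counted in every library where Gvin1 was not. These correlations are descriptions over 6 libraries of 2 tissues and carry no test.

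Most members were ordered alike between replicates of the same genotype. WT kidney 1 was the highest of the 4 kidney libraries in 7 of 9 members, against 20.9% of all genes tested, and Ahnak KO kidney 2 was above Ahnak KO kidney 1 in 9 of 9, against 8496 of 16481 genes. Ahnak KO kidney 1 is the library with the female pattern of Xist and Y genes. The gap between the Ahnak KO replicates therefore cannot be told apart from a difference in sex. Summed, the 9 members had 176 CPM in WT kidney 1, 158 in Ahnak KO kidney 2, 128 in Ahnak KO kidney 1 and 117 in WT kidney 2. Other interferon-induced genes were ordered alike between the WT replicates. WT kidney 1 was above WT kidney 2 in 38 of 42 interferon-stimulated genes such as Isg15, with a median log2 gap of 0.42, in 15 of 16 antigen presentation genes and in 14 of 18 genes of interferon receptors and signalling, against 8250 of 16481 genes tested. The summed macrophage markers had the same order, and single markers did so in part. The 8 macrophage genes summed to 145 CPM in WT kidney 1, 138 in Ahnak KO kidney 2, 127 in Ahnak KO kidney 1 and 107 in WT kidney 2, with none at 0. Of these 8, 6 were higher in WT kidney 1 than in WT kidney 2, 5 were higher in Ahnak KO kidney 2 than in Ahnak KO kidney 1, and 4 were highest in WT kidney 1. The 9 kidney epithelium genes ran the other way, at 1545 CPM in WT kidney 1 and 1495 in Ahnak KO kidney 2 against 1858 in WT kidney 2 and 1851 in Ahnak KO kidney 1, with only 2 of 9 higher in WT kidney 1 than in WT kidney 2. The 8 endothelium genes were all higher in WT kidney 1 (851 CPM) than in WT kidney 2 (723 CPM), and summed to 871 and 868 CPM in Ahnak KO kidney 1 and 2. Of 8 lymphocyte genes only 3 had enough counts to be tested, and the list summed to 5.59 to 8.84 CPM. The part of cell content in these gaps was not tested, and in bulk tissue fewer cells of a type and less RNA per cell cannot be told apart.

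The interferons themselves were nearly absent. Of 21 ligand genes, 18 were listed at 0 in every library, Ifng and Ifnb1 among them. Ifnz reached 10 counts in Ahnak KO kidney 2, Ifne had 7 and 8 counts in Ahnak KO and WT ureter and 0 in kidney, and Ifna7 had 2 counts in WT kidney 2. The receptors and their signal carriers were all counted, and 0 of 18 differed between genotypes in kidney at an adjusted or an unadjusted p under 0.05 in edgeR. The same held for 42 interferon-stimulated and 16 antigen presentation genes, of which 0 passed either threshold.

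Between tissues, which the choice of members did not use, 2 of the 9 members other than Gvin1 differed, in opposite directions. With edgeR's quasi-likelihood test on all 6 libraries, with genotype as a further term, Gbp2 was 3.75-fold higher in ureter and Tgtp1 was 2.36-fold higher in kidney, while 7 of the 9 members other than Gvin1 did not pass. Gbp2 had 5.17 ± 1.08 CPM (SD, n = 4) in kidney and 19.4 ± 2.95 CPM (SD, n = 2) in ureter, a log2 fold change of 1.91 (SE 0.246, adjusted p = 0.0014 in edgeR), with every ureter library above every kidney library. It passed under all 13 alternatives, with an adjusted p from 8.97e-10 to 0.0149. Tgtp1 had 7.03 ± 1.23 CPM in kidney and 3.07 ± 1.35 CPM in ureter, a log2 fold change of -1.24 (SE 0.351, adjusted p = 0.0292 in edgeR), with every ureter library below every kidney library. Its call was lost without Ahnak KO kidney 2 (adjusted p = 0.0865 in edgeR), WT kidney 1 (0.0639), WT kidney 2 (0.0711) or WT ureter (0.149, with a log2 fold change of -0.75), and it passed under the other 9 alternatives. Tgtp2, the paralog whose reads the Tgtp1 counts may hold, did not pass (-0.76, SE 0.428, adjusted p = 0.194 in edgeR). Over all genes 23.7% were lower and 21.4% were higher in ureter, against 1 of 9 of the members other than Gvin1 in each direction. Without Ahnak KO kidney 1, the library that stood apart, Gbp2 and Tgtp1 were called as before.

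Gvin1 was also called lower in ureter, but the kidney values that led to its choice are 1 side of this comparison. The call is no test of Gvin1, which is only described here. Its kidney mean holds 2 libraries at 0, and the call was absent with DESeq2 (adjusted p = 0.781), with limma on FPKM (0.0799 with a pseudocount of 1) and when WT ureter was left out. Gvin1 was not tested at all without WT kidney 1, without WT kidney 2 or with a minimum of 10 counts in every library. Of the members that did not pass, Iigp1 had a log2 fold change of 0.87 (SE 0.352, adjusted p = 0.0900 in edgeR), Irgm2 of 0.47 and Gbp7 of 0.46, and Irgm1 of -0.44 (SE 0.189, adjusted p = 0.104 in edgeR). Gbp3 had -0.40, Igtp -0.12 and Ifi47 -0.0021, with SEs of 0.399, 0.221 and 0.504. Gbp3 turned to 0.19 and Ifi47 to 0.90 without WT ureter. Without WT kidney 1, Iigp1 and Gbp7 passed as higher in ureter (adjusted p = 0.0074 and 0.0343 in edgeR) with log2 fold changes of 1.20 and 0.60. Limma on FPKM gave a different balance over all genes, with 6360 lower and 2528 higher in ureter, against 3992 and 3603 in edgeR, and shifted the median of all genes by -0.27 on the log2 scale.

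**Figure D4:**
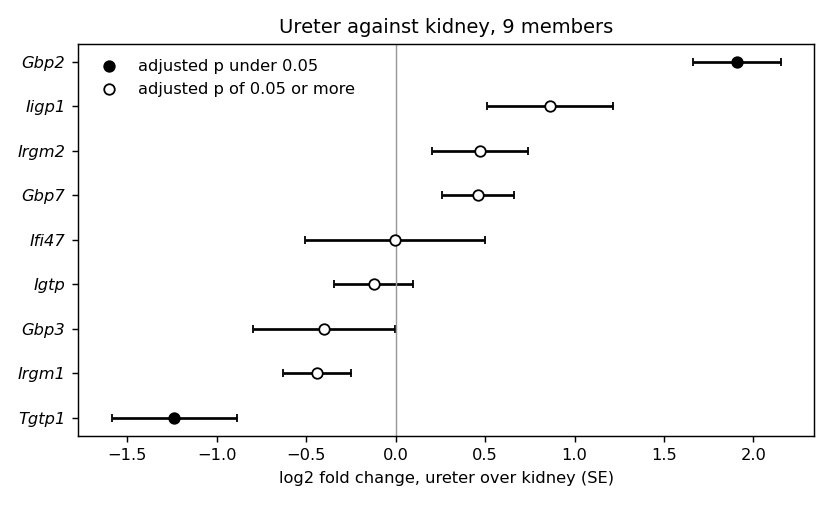
Log2 fold change, ureter over kidney, with its SE (x axis) from edgeR over 6 libraries, for the 9 members other than Gvin1 (rows, sorted). Filled points passed an adjusted p under 0.05: Gbp2 at 1.91 and Tgtp1 at -1.24; open points did not.

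Other GTPase genes differed between tissues in both directions, and whether their shares differ from those of all genes was not tested. In the GBP list Gbp5 (1.64, SE 0.451, adjusted p = 0.0265 in edgeR) and Gbp4 (0.74, adjusted p = 0.0449) were higher in ureter with Gbp2, and 0 of 10 were lower. In the IRG list Gm4951 was higher (2.34, adjusted p = 0.0246 in edgeR). 9930111J21Rik1 was called lower, with 21, 5, 24 and 42 counts in the kidneys and 0 in both ureters, at least 4.58-fold below its kidney mean. Mx2, an antiviral dynamin-like GTPase, was lower in ureter (-1.35, SE 0.309, adjusted p = 0.0138 in edgeR), while its paralog Mx1 had 0.83 and did not pass. Of the 17 IRG, GBP and Mx genes tested that are not members, 3 were higher, 2 were lower and 12 did not pass, against 21.4% higher and 23.7% lower over all genes.

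In the wider pathway, of 42 interferon-stimulated genes 11 were lower and 6 were higher in ureter, against 23.7% and 21.4% of all genes, so that neither count stands out from the background. The lower ones included the antiviral genes Rsad2 (-2.92, SE 0.167, adjusted p = 5.9e-05 in edgeR), Oas2 (-1.70), Ifi44 (-1.66) and Ifit3 (-1.61). The higher ones included Oas1g (1.01), Ifi27 (0.98), Parp9 (0.70) and Ifitm2 (0.69). Antigen presentation genes were higher in 10 of 16 and lower in 3. The class I gene H2-T23 (2.34, SE 0.199, adjusted p = 0.00025 in edgeR), Nlrc5 (2.11), the activator of class I genes, H2-D1 (1.59) and Psmb9 (1.49), an immunoproteasome subunit, were higher. The class II genes H2-Ab1 (-1.87) and H2-Eb1 (-1.27) were lower, and Ciita, the activator of class II genes, was at 0 in both ureters against 41 to 92 counts in the kidneys, at least 13.6-fold lower. Among receptors and signal carriers 6 of 18 were higher, led by Irf2 (1.04), Ifnlr1 (0.94), Usp18 (0.88) and Il10rb (0.84), and Ifnar1 was lower (-0.43). In ureter 5 of 8 macrophage genes were higher as well, Adgre1 (1.16) and C1qa (1.10) among them, and the list summed to 334 and 221 CPM against 107 to 145 CPM in kidney, and its part in these differences was not tested.

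In ureter, with 1 library per genotype, there is no replicate check and no test. All 9 members other than Gvin1 had more in the Ahnak KO library, with log2 ratios from 0.081 (Igtp) to 1.92 (Ifi47) and a median of 0.69, against -0.017 over the 16117 genes compared, of which 7811 lay above 0. The 9 genes summed to 205 CPM in Ahnak KO ureter and 126 CPM in WT ureter. Ifi47 had 8.92 and 1.94 CPM, a log2 ratio of 1.92, with an exact 95% interval of 1.87 to 2.55 that was set without a pseudocount. Gbp3 had 27.8 and 12.8 CPM, a log2 ratio of 1.09 (0.97 to 1.27). These intervals cover counting error only. Over a 2-fold ratio, 2 of 9 members were higher in Ahnak KO, against 4.44% of all genes, and 0 of 9 were lower, against 5.76%. In kidney the same genes had log2 fold changes of 0.11 (Ifi47) and -0.16 (Gbp3), and the difference between tissues was not tested.

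The ureter ratio depended on scaling. The ribosomal transcript Rn45s took 8.06% of the counts in Ahnak KO ureter and 0.626% in WT ureter, and library size without TMM factors shifted the median of all genes by -0.19. Igtp then turned to -0.10, the other 8 members stayed above 0, and Ifi47 alone passed a 2-fold ratio. With the deposited FPKM 8 of 9 members were above 0 as well, with Igtp at -0.11. The 8 macrophage genes were all higher in the Ahnak KO ureter, with a median log2 ratio of 0.64 near the 0.69 of the members, and their part in it was not tested.

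Among the other GTPases 9 of 16 had more in Ahnak KO ureter and 7 had less, with a median log2 ratio of 0.27. Gm12250 (1.44), F830016B08Rik (1.20) and Tgtp2 (1.05) passed a 2-fold ratio with Ifi47 and Gbp3, and Mx1 (0.86) and Gm4951 (0.77) did not. Gm4841 (-0.83), Gbp10 (-0.69), Mx2 (-0.57) and Gbp5 (-0.48) were the lowest. Low counts stand behind several of these, with 22 and 0 counts for F830016B08Rik and 0 and 23 for Gm4841 in Ahnak KO and WT ureter. Of 42 interferon-stimulated genes 33 had more in Ahnak KO ureter, with a median of 0.18.

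**Figure D5:**
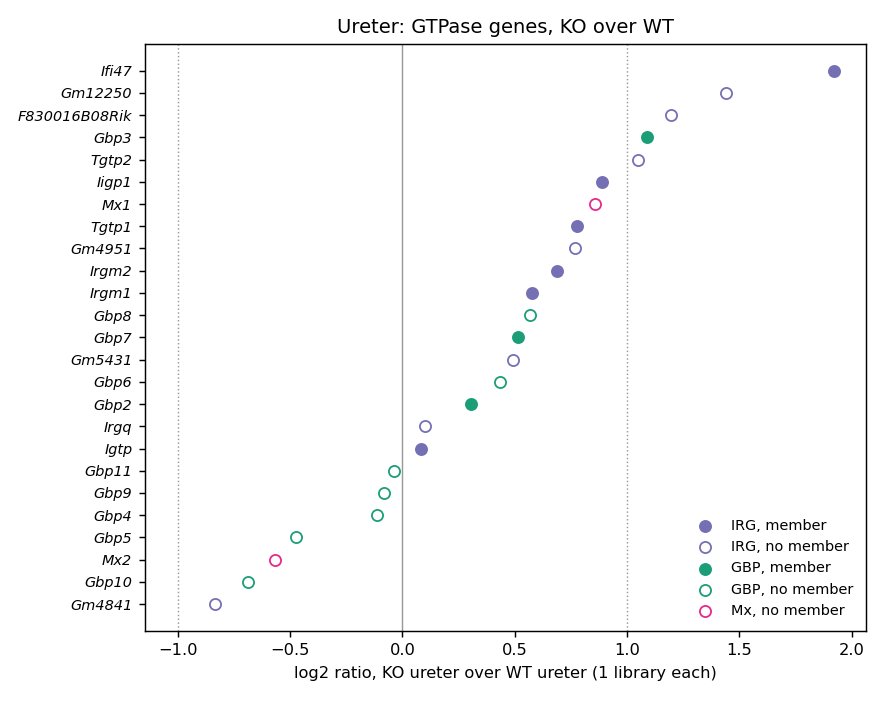
Log2 ratio of CPM + 0.5, Ahnak KO over WT ureter with 1 library each (x axis), for the 25 IRG, GBP and Mx genes that reached 10 counts in either library (rows, sorted). Filled points are members and open points are not, colours give the family and dotted lines a 2-fold ratio; all 9 members lie above 0, and 7 of the 16 other genes lie below.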

How the data were processed

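The authors deposited 1 table of 24532 genes in 6 libraries with an estimated count (whole numbers, not normalized), an FPKM and a TPM per library. Counts and FPKM were used here, TPM was not. The paper's methods and the submitters' notes name different programs. The methods name Cutadapt, STAR, Cufflinks and GRCm39, and the notes name Trimmomatic 0.38, HISAT2 2.1.0, StringTie 1.3.4b and mm10. Of the value columns 0 were left unmapped to a sample. The members and all gene lists were chosen with earlier results of these data known.

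Counts were tested with edgeR 4.0.16 in R 4.3.3 (TMM factors, filterByExpr, quasi-likelihood test, Benjamini-Hochberg adjustment over all genes tested), a test planned for read counts and run on the deposited estimated counts. Kidney used genotype alone (2 and 2 libraries), and tissue used all 6 libraries with genotype as a term. SEs are the absolute log2 fold change over the square root of F. Ureter genotypes (1 library each) were compared by log2(CPM + 0.5) for genes with at least 10 counts, with no test. Nothing says which animals entered a replicate, so p-values measure the spread between these libraries. Alternatives used DESeq2 1.42.0, limma 3.58.1 on log2(FPKM + 1) and log2(FPKM + 0.1), other filters, a replicate block and leaving out each library. Log2 fold changes on FPKM understate low genes. A count of 3 stood for 0.0421 to 0.101 CPM with TMM factors. The code was tested on simulated data.

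Named were the members, every gene of the GVIN, IRG, GBP and Mx lists with a value to give, up to 4 called genes per direction in other lists, the 5 genes closest to Gvin1, genes split by genotype, and genes within 300 kb of Gvin1. Marker and library-check genes, Isg15, Ifng, Ifnb1, Ifne, Ifnz and Ifna7 were named after their values were seen. Python 3.11.15 with pandas 2.3.3, numpy 2.4.6, scipy 1.17.1 and matplotlib 3.10.9 did the rest.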

Additional observations from a re-analysis of the deposited data

Results flagged for a closer look

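Of 26 genes of the GVIN, IRG, GBP and Mx families compared in both tissues, 4 (15.4%) had both Ahnak KO kidneys on the same side of both WT kidneys and the Ahnak KO ureter library on the opposite side of the WT ureter library, against 1505 of 15348 genes in all (9.81%). The difference between the tissues was not tested. F830016B08Rik, an IRG gene, had a log2 ratio of 1.20 in ureter and a log2 fold change of -0.97 (SE 0.780) in kidney. Gbp5 had -0.48 in ureter and 0.76 (SE 0.486) in kidney. Gm8989, a pseudogene near Gvin1, had -0.19 in ureter and 0.24 (SE 0.575) in kidney. Mx2 had -0.57 in ureter and 0.13 (SE 0.225) in kidney. In kidney each had an adjusted p of 0.9999 in edgeR's quasi-likelihood test, and the ureter ratios rest on 1 library per genotype.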

How the results depend on the processing

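Between genotypes in kidney, edgeR called 2 genes lower and 0 higher, with 0 of the 9 members other than Gvin1 among them. Gvin1 was chosen by these values, so its calls are not followed here. DESeq2's Wald test called 21 lower and 25 higher. A minimum of 10 counts in every library gave 1 gene lower. Limma on FPKM with either pseudocount, a single fit of all 6 libraries and a replicate block each gave 0 genes lower. Leaving out each library gave 2 to 63 genes lower and 1 to 24 higher. The lower genes numbered 63 without Ahnak KO kidney 2, 24 without Ahnak KO kidney 1 and 6 without WT kidney 1. The higher ones numbered 22 without Ahnak KO kidney 1 and 4 without WT kidney 1. The lone library of a genotype or tissue was then assumed to vary like the others. The replicate numbers share nothing in the labels beyond the number, and deviations of same-numbered kidneys had r = -0.28 over 16481 genes. A crossed replicate block, chosen after seeing the data, gave 1 gene lower.

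Between tissues, 3992 genes were lower and 3603 higher in ureter in edgeR. Limma on FPKM gave 6360 (pseudocount 1) and 6557 (0.1) lower. Of the members 2 were lower (Tgtp1, and Gvin1, whose call is only a description) and 1 was higher (Gbp2). DESeq2 gave 1 lower and 2 higher (Iigp1 added), and a minimum of 10 counts in every library gave 1 lower, since Gvin1 left the test. Leaving out each library gave 0 to 2 members lower and 1 to 3 higher. Ifi47, near 0, turned to 0.0040 (DESeq2), 0.011 (DESeq2 size factors), 0.0037 (at least 10 counts), 0.23 (without WT kidney 1) and 0.90 (without WT ureter), and Gbp3 to 0.19 (without WT ureter). Leaving out each library, Ifi47 ran from -1.18 to 0.90 and Gbp3 from -1.09 to 0.19, lowest without Ahnak KO ureter.

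In ureter, a pseudocount of 0.1 CPM gave 1633 genes lower and 1140 higher, against 929 and 716, and the deposited FPKM gave 334 higher. Library size alone and FPKM each left 1 member over 2-fold higher, against 2.

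In kidney the depth was the same order in all libraries and the number of libraries limits the comparison. An entry of 0 in this table can be a failed estimate, so limits for Gvin1 hold for the deposited entries, and genes with near-identical copies remain uncertain. With 1 ureter library per genotype no spread between mice is known.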
